A study of Bos taurus with 50 samples.

Results

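Endometrial libraries with abundant oxytocin receptor (OXTR) mRNA at week 9 postpartum were compared with such libraries at week 5. Libraries were chosen by the OXTR (ENSBTAG00000019772) count alone. At least 60 CPM (counts per 1000000 counts of the library) were required, and libraries could enter from CycW5 and NoCycW5 cows at week 9 and from NoCycW5 cows at week 5. Of 33 libraries that could enter, 18 passed, out of 50 libraries in the series. These were all 12 NoCycW5 libraries of week 5, and 6 of 21 libraries of week 9. The week 9 libraries are named here by their label numbers: 72, 83 and 87 came from CycW5 cows, and 76, 80 and 91 came from NoCycW5 cows.

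NoCycW5 cows had no corpus luteum (CL) and no detectable progesterone (P4) in plasma by week 5, whereas CycW5 cows had both at week 5. Every cow then received gonadotropin-releasing hormone, an intravaginal P4 insert and prostaglandin to synchronize ovulation, and the week 9 biopsy was timed for the luteal phase. All were first-lactation cows of mixed Holstein and Jersey ancestry, biopsied through the cervix in the uterine horn on the side of the CL or of the largest follicle. The labels do not link libraries to cows, so a cow may stand in both weeks, and P-values measure the spread between libraries.

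In ruminant endometrium, oxytocin acts through OXTR to release prostaglandin F pulses that end the life of the CL. Progesterone holds OXTR low through most of the luteal phase, and OXTR is high near estrus and when no CL is present. Luminal and glandular epithelium under P4 changes its transporters, secreted proteins and lipid metabolism.

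Raw OXTR abundance at week 5 ran from 75.7 to 244.2 CPM with a median of 112.0, and in the chosen week 9 libraries from 67.0 to 162.1 CPM with a median of 102.4. These values chose the libraries and carry no test. The library just inside the limit at week 9 was library 83 with 67.0 CPM, and the one just outside was library 75 of the NoCycW5 cows with 39.7 CPM. At week 5 the lowest library was library 68 with 75.7 CPM. The other 15 libraries of week 9 held 2.7 to 39.7 CPM and are called OXTR-low. The 9 CycW5 libraries of week 5 below the limit held 5.2 to 51.8 CPM. The plot of OXTR by library shows the gap in which the limit lies.

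Total counts of the 18 libraries ran from 24235270 to 32453713. All week 5 libraries have lower numbers on the study's sample sheet (up to 26) than all week 9 libraries (from 27 on). The week and any processing order therefore cannot be told apart. The week 5 libraries compared came from NoCycW5 cows only, and those of week 9 from CycW5 and NoCycW5 cows. Every cow was synchronized between the weeks. The week therefore cannot be told apart from that treatment, and only in part from cow status. EPCAM of epithelium (92.8 to 543 CPM) and PDGFRA of stromal fibroblasts (314 to 700 CPM) were detected in every one of the 18 libraries. Below, CPM are scaled by the trimmed mean of M-values (TMM) and a fold change is week 9 over week 5, as log2 with its standard error (SE). Genes were called where edgeR's quasi-likelihood test, adjusted over all genes tested by the Benjamini-Hochberg (BH) method, gave 0.05 or less.

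High OXTR did not go with a single expression profile at week 9, so the libraries are called OXTR-high and not non-luteal. Each library was placed over all genes on the line from the mean of the 12 OXTR-high libraries of week 5 (position 0) to the mean of the 15 OXTR-low libraries of week 9 (position 1). The 6 libraries did not gather at a single place on this line. Libraries 87, 76 and 91 stood at 0.00823, 0.0916 and 0.105, among the week 5 libraries, which spread from -0.115 to 0.187. Libraries 83, 80 and 72 stood at 0.755, 0.857 and 0.865, within the OXTR-low libraries of week 9, which spread from 0.265 to 1.23 with a median of 1.07. Both sets held libraries of CycW5 and of NoCycW5 cows. The OXTR-low CycW5 libraries of week 5 spread from 0.308 to 1.1. The division was seen in the data and was not tested, and the values of each library are therefore given for the genes below.

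**Figure D1:**
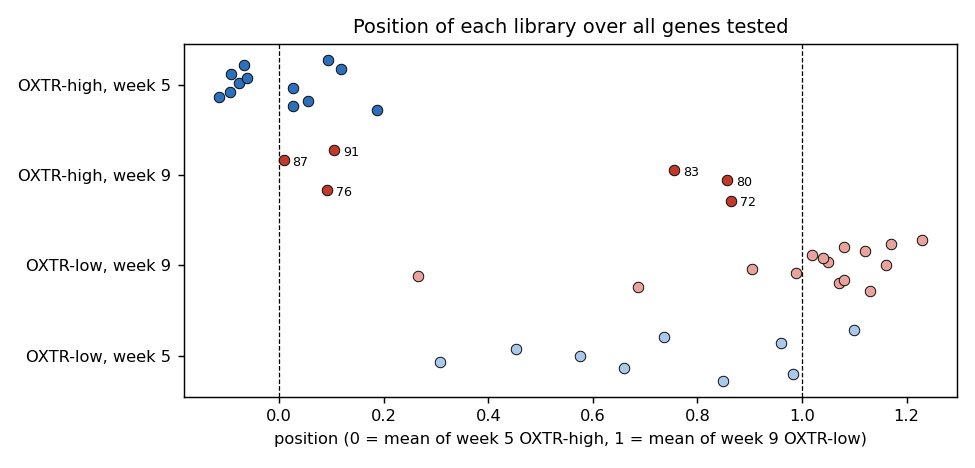
Position of each library (no unit) between the mean of the OXTR-high libraries of week 5 at 0 and the mean of the OXTR-low libraries of week 9 at 1, by group. Libraries 72, 80 and 83 sit between 0.755 and 0.865 and libraries 76, 87 and 91 between 0.00823 and 0.105.

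Between the 6 week 9 and 12 week 5 OXTR-high libraries, 2584 of 15284 genes tested were called (16.9%), 1481 higher at week 9 (9.69%) and 1103 lower (7.22%). Of these, 728 differed at least 2-fold (4.76%). The median log2 fold change of all genes was 0.02. The count rested on the libraries used. With only the NoCycW5 libraries of week 9 it was 163, and with only the CycW5 libraries it was 1652. It was 1368 without library 80, 1414 without library 83 and 1511 without library 72. With an OXTR limit of 100 CPM, which leaves week 9 libraries 72, 87 and 91 and 7 libraries of week 5, it was 0, although 2109 genes had an unadjusted P under 0.05 in the same edgeR test and no other tool was run there. In an alternative added after the values were seen, the count was 183 without libraries 72, 80 and 83, of which 109 were among the 2584. It was 3493 without libraries 76, 87 and 91. These libraries were divided by their position over the same genes. The fall and the rise of the count follow from that division and are no separate evidence.

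The genes called higher differed in which libraries carried them. Of the 1481, library 72 exceeded all 12 week 5 libraries for 1173 genes, library 80 for 1213 and library 83 for 1174, against 545 genes for library 76, 701 for library 87 and 333 for library 91. These genes were picked by a test in which the same libraries enter. Over all genes tested, libraries 72, 80 and 83 exceeded week 5 for 2889, 2891 and 2673 genes, and libraries 76, 87 and 91 for 1692, 2148 and 1007. Of the 1481, for 337 genes libraries 72, 80 and 83 were the ones above the week 5 range, and for 14 genes libraries 76, 87 and 91 were. Neither pattern was counted over all genes tested. Among the 1103 genes called lower, those below the week 5 range numbered from 413 in library 91 to 877 in library 80. Over all genes tested they numbered from 1292 in library 91 to 3144 in library 80.

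Gene symbols were known only for genes that the study itself had reported as changed in some comparison of these libraries. Of 2156 tested genes with a symbol, 649 (30.1%) were called higher and 214 (9.93%) lower, with a median log2 fold change of 0.24. Counts over gene lists below are drawn from these genes, stand against those shares, and are not independent evidence of a direction. The cytosolic ribosomal protein list is the exception, as some of its members were identified by the study's description without a symbol. Those shares are not its exact background.

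A set of genes separated all 6 libraries of week 9 from the OXTR-high libraries of week 5. All 6 week 9 libraries exceeded all 12 of week 5 for 62 genes (0.406% of genes tested), and all 6 lay below all 12 for 78 genes (0.51%). A symbol was known for 45 of the former and 25 of the latter. The folds of the 45 ran from 1.24 to 17.4, and those of the 25 from 1.2 to 8.21. Over the same weeks in OXTR-low libraries, 14 of the 45 and 2 of the 25 were called, against 12.1% of all genes tested there. Most of these genes were not called there, but the 45 held a larger share of calls than all genes tested. Genes with a symbol had been reported as changed by the study, so that share is no independent evidence. The calls went both ways in OXTR-low libraries, where GK5 and ITGA2 fell and BLNK and RNF157 rose.

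HEATR5B (ENSBTAG00000014310), which takes part in transport between the Golgi network and endosomes, was even across the 6 libraries. It reached 99.0, 98.2, 99.7, 87.6, 91.4 and 77.4 CPM in libraries 72, 76, 80, 83, 87 and 91, against a lowest, median and highest value at week 5 of 44.1, 59.3 and 67.7. All 6 libraries lay close together and above the week 5 range. The log2 fold change was 0.70 (SE 0.09, BH P = 0.000714). In OXTR-low libraries HEATR5B had 66.6 to 102.6 CPM at week 5 and 69.6 to 137.5 CPM at week 9. There its log2 fold change was 0.02 (BH P = 0.90).

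PSMA2 (ENSBTAG00000000990), an alpha subunit of the 20S proteasome core, had 127, 153, 136, 134, 169 and 103 CPM in the same order of libraries and 70.3, 90.7 and 102.1 CPM at week 5 (lowest, median, highest). Library 91 exceeded the highest week 5 library only narrowly. Its log2 fold change was 0.67 (SE 0.09, BH P = 0.000736). ARAP2, which regulates small GTPases, had 32.5, 29.3, 36.7, 32.3, 17.98 and 17.1 CPM against 5.70 to 13.8 CPM, and rose by 1.62 (SE 0.22) on the log2 scale. NAMPT, the rate-limiting enzyme of NAD salvage, had 49.98 to 88.2 CPM against 31.1 to 47.8 CPM and a log2 fold change of 0.85. NAMPT was chosen for mention after its values were seen.

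PLS1 (ENSBTAG00000023429), plastin 1, which bundles actin in microvilli, was higher in all 6 libraries but spread more. Its values were 214, 71.8, 106, 99.0, 155 and 56.0 CPM against 17.2, 35.3 and 49.8 CPM at week 5. Here library 87 was the second highest, although its position was nearest to the week 5 mean. The fold change on the log2 scale was 1.76 (SE 0.24, BH P = 0.000714). SOWAHB had 3.54 to 11.8 CPM against 1.57 to 3.17 CPM, with no overlap. MGST1, a microsomal glutathione transferase, had 47.3 to 93.6 CPM against 30.4 to 49.0 CPM, with library 76 inside the week 5 range.

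On the lower side, some genes lay below week 5 in all 6 libraries by small folds. FTO, an RNA demethylase, had 67.7, 71.6, 67.9, 60.6, 70.9 and 68.7 CPM in libraries 72, 76, 80, 83, 87 and 91 against 77.4, 86.8 and 101.4 CPM at week 5. All 6 lay below week 5 within a narrow range, at a log2 fold change of -0.34 (SE 0.06, BH P = 0.00282). TRIM32, a ubiquitin ligase, had 11.4 to 15.9 CPM against 17.6 to 21.3 CPM (log2 fold change -0.50), and PARD6G, a cell polarity protein, had 9.54 to 13.3 CPM against 14.2 to 25.2 CPM (log2 fold change -0.72). C15orf52 and ZC3HC1 were also below week 5 in all 6 libraries, by log2 fold changes of -0.85 and -0.36. CALHM2, of a family of channel proteins, had a log2 fold change of -0.80, with library 87 inside the week 5 range.

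Of 12 tested genes from a list drawn up for luteal-phase endometrium, 7 were called higher and none lower, with a median log2 fold change of 2.44. The list was made with earlier results of these data known, and its members ENPP4, PLLP and MCOLN3 were also named beforehand. Its counts are therefore not independent evidence. The 5 not called were MEP1B, PLA2G10 and MSTN, with positive values, and LPL and FABP5, with log2 fold changes of -1.07 and -0.14. ENPP4 (ENSBTAG00000003499), a membrane ectoenzyme of nucleotide metabolism, had 419, 606 and 285 CPM in libraries 72, 80 and 83 and 90.5, 83.3 and 84.9 CPM in libraries 76, 87 and 91. The lowest, median and highest week 5 values were 28.8, 40.8 and 69.0 CPM, so that all 6 lay above them. The change amounted to a log2 fold change of 2.62 (SE 0.35, BH P = 0.000714). The OXTR-low libraries of week 9 held 172 to 480 CPM, a range that libraries 76, 87 and 91 did not reach.

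MCOLN3 (ENSBTAG00000016982), a cation channel of endosomes and lysosomes, showed the same arrangement. Libraries 72, 80 and 83 had 154, 155 and 197 CPM, and libraries 76, 87 and 91 had 22.6, 16.5 and 23.1 CPM. Week 5 libraries had 1.92 to 14.95 CPM with a median of 4.04, and did not overlap with any of the 6. In the test, the log2 fold change was 4.12 (SE 0.54, BH P = 0.000714). PLLP, a membrane proteolipid of myelin and epithelia, had 45.9, 25.1 and 11.3 CPM in libraries 72, 80 and 83 against 2.67 to 4.15 CPM in the other 3, with 0.504 to 2.69 CPM at week 5. Library 91 lay just inside the week 5 range.

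The members DGAT2 and SCARA5 did not exceed the week 5 range in libraries 76, 87 and 91. DGAT2, which forms triglyceride, had 246, 101 and 32.1 CPM in libraries 72, 80 and 83 and 2.16 to 7.38 CPM in the other 3, against 3.99 to 10.96 CPM at week 5 (log2 fold change 3.27, BH P = 0.00398). Library 87 held the 2.16 CPM, below all week 5 libraries. SCARA5, a ferritin receptor, had 472, 460 and 845 CPM in libraries 72, 80 and 83 and 55.3, 4.31 and 84.8 CPM in libraries 76, 87 and 91, against 25.6 to 152.1 CPM. Here too library 87 lay below the week 5 range. The log2 fold change was 2.30 (BH P = 0.0238).

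Not all genes of the luteal-phase list followed in libraries 72 and 80. MEP1B, a secreted or membrane-bound metalloprotease, had 14.8, 11.7, 13.0, 154, 2.60 and 20.3 CPM in libraries 72, 76, 80, 83, 87 and 91. The OXTR-low libraries of week 9 held 129 to 720 CPM, a range reached by library 83 alone. PLA2G10, a secreted phospholipase A2, had 252 CPM in library 83 and 29.1 to 75.3 CPM in the other 5, whereas the OXTR-low libraries of week 9 held 114 to 547 CPM. Neither was called against week 5 (BH P = 0.0663 and 0.0645).

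Genes of apical membranes and transport were higher. From a family put together after the values were seen, brush border and apical endocytosis, 12 of 13 genes were called higher and none lower, with a median log2 fold change of 1.57. LRP2 (megalin), the endocytic receptor of apical epithelium, had 711, 662 and 897 CPM in libraries 72, 80 and 83 and 28.6, 36.97 and 9.56 CPM in libraries 76, 87 and 91. The week 5 values were 1.01, 3.63 and 38.5 CPM (lowest, median, highest), and libraries 76, 87 and 91 lay within them. Its log2 fold change was 5.59 (SE 0.89, BH P = 0.00174). EZR, ezrin, which links membrane to actin, had 874, 820 and 876 CPM in libraries 72, 80 and 83 and 312, 450 and 331 CPM in libraries 76, 87 and 91, against 199.6 to 314 CPM at week 5. The fold change on the log2 scale was 1.31. PLS1, MYO1A, a myosin of microvilli, and BAIAP2L1 were the 3 members for which all 6 libraries exceeded week 5.

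Of 61 solute carriers tested, 34 were called higher and none lower, with a median log2 fold change of 0.59. The 69 carriers identified summed to 3656, 3572 and 4699 CPM in libraries 72, 80 and 83. In libraries 76, 87 and 91 they summed to 1617, 1739 and 1616 CPM, inside the 1251 to 1750 CPM of week 5. SLC5A1, the sodium-glucose cotransporter, had 11.2, 24.5 and 60.5 CPM in libraries 72, 80 and 83 and 2.39, 3.42 and 4.63 CPM in libraries 76, 87 and 91, against 0.465 to 3.09 CPM at week 5. Library 76 was the one inside the week 5 range. The change amounted to a log2 fold change of 4.04 (SE 0.58, BH P = 0.00111). SLC18A2, a vesicular monoamine transporter, was the single carrier with all 6 libraries above week 5, with 17.9 to 59.2 CPM against 11.9 to 17 CPM. S100G, the calcium-binding protein calbindin-D9k, had 499.7, 610, 556 and 582 CPM in libraries 72, 80, 83 and 87 and 95.2 and 133 CPM in libraries 76 and 91, against 48.0 to 189 CPM. Library 87 stood with 72, 80 and 83 for this gene (log2 fold change 2.46, BH P = 0.00111).

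**Figure D2:**
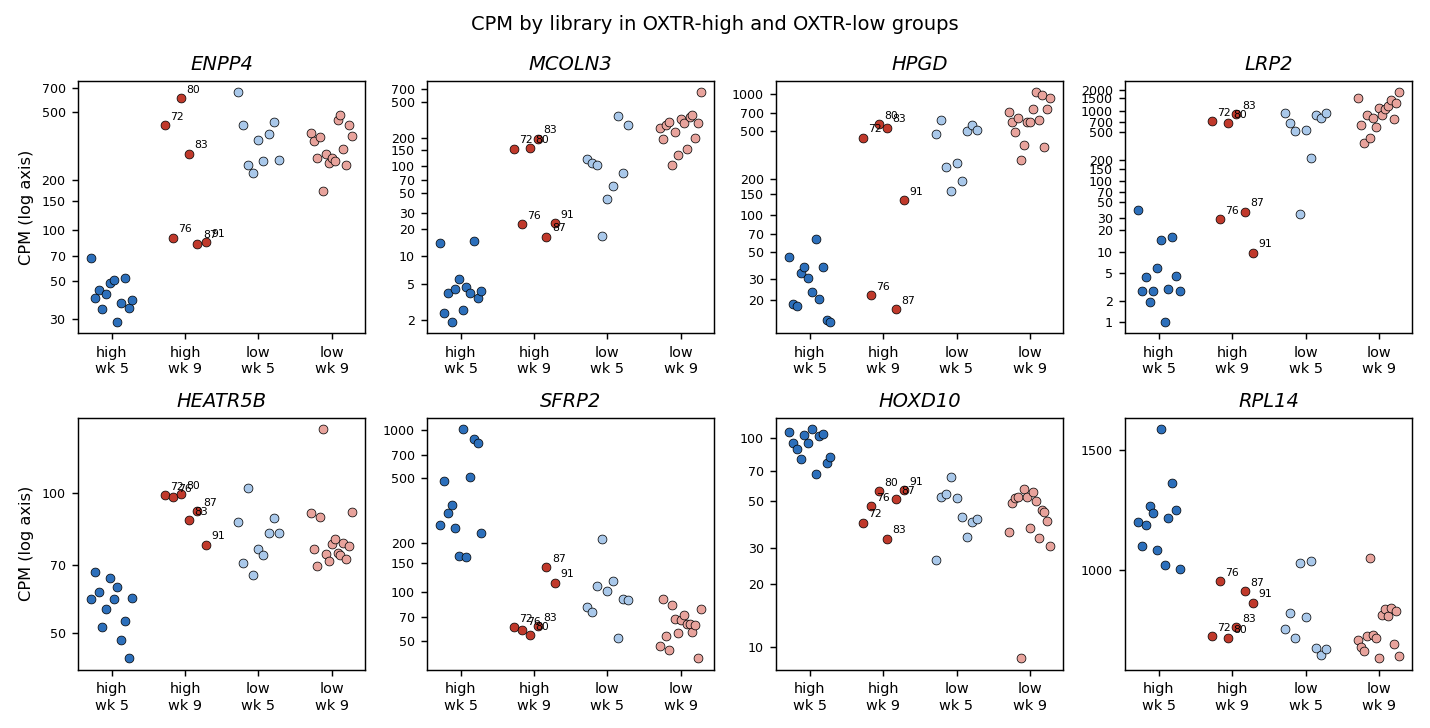
TMM-scaled CPM on log axes of named genes in each OXTR-high library of week 5 and week 9 and in the OXTR-low libraries, with the week 9 OXTR-high libraries marked by number. HEATR5B and HOXD10 separate all 6 libraries from the OXTR-high libraries of week 5. HPGD reaches 439 to 565 CPM in libraries 72, 80 and 83 and 16.96 to 133.8 CPM in the other 3.

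In the prostaglandin pathway, 5 of 8 genes tested were called higher and none lower, with a median log2 fold change of 1.37. HPGD (ENSBTAG00000025942), which inactivates prostaglandins, had 439, 565 and 530 CPM in libraries 72, 80 and 83, within the 289 to 1033 CPM of the OXTR-low libraries of week 9. Libraries 76 and 87 had 21.96 and 16.96 CPM, within the 13.4 to 63.7 CPM of week 5, and library 91 had 133.8 CPM. In the test, the log2 fold change was 3.28 (SE 0.55, BH P = 0.00208). Thus 3 libraries combined high OXTR with HPGD at the level of OXTR-low endometrium.

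PTGS2, the inducible cyclooxygenase, reached 1672 CPM in library 83, above the 676.7 CPM of the highest OXTR-low library of week 9. Libraries 80 and 76 had 144 and 97.2 CPM, and libraries 72, 87 and 91 had 20.2 to 29.4 CPM, within the 8.26 to 47.3 CPM of week 5. The log2 fold change was 3.70 (BH P = 0.00416). Without library 83 it was 1.33 (BH P = 0.0591), and the call was also lost in limma-voom. PLA2G4A, which frees arachidonic acid, had 52.9 to 186 CPM against 27.6 to 58.1 CPM and a log2 fold change of 1.09 (BH P = 0.00358). ACSL3 and ACSL4, which activate long-chain fatty acids, were called with log2 fold changes of 1.31 and 1.85. PTGES, a prostaglandin E synthase, and PTGFR, the prostaglandin F receptor, had log2 fold changes of -0.81 and -2.82 and were not called.

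Of 5 genes tested among steroid hormone receptors and genes of estrogen response, 2 were called higher and 1 lower. ESR1, estrogen receptor alpha, had 129, 103, 148, 78.3, 111 and 113 CPM in libraries 72, 76, 80, 83, 87 and 91 and 54.4 to 230.1 CPM at week 5. The week 9 values lay inside the week 5 range, and the log2 fold change was -0.15 (SE 0.27, BH P = 0.744). The OXTR-low libraries of week 9 had 28.8 to 87.1 CPM, and library 83 was the one of the 6 inside that range. ESR2, estrogen receptor beta, had 20.4, 13.4 and 14.1 CPM in libraries 72, 80 and 83 and 1.62 to 3.59 CPM in the other 3, against 0.256 to 5.00 CPM at week 5. Its log2 fold change was 2.16 (BH P = 0.0101). PDZK1, a scaffold protein of apical transporters, had 770, 683 and 210 CPM in libraries 72, 80 and 83 and 14.5 to 20.9 CPM in the other 3, within the 10.2 to 45.1 CPM of week 5. The calls of ESR2 and PDZK1 were lost in limma-voom with library quality weights (BH P = 0.0602 and 0.0542). MSX2, a homeobox factor, was lower by log2 fold change -1.71 (BH P = 0.0215), and was -1.55 without library 83 (BH P = 0.0554).

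Sterol synthesis genes were higher. Of 16 tested, 14 were called higher and none lower, with a median log2 fold change of 0.95, and the other 2, LSS and DHCR7, had 0.47 and 0.51. CYP51A1, lanosterol demethylase, had 194, 217, 136 and 101 CPM in libraries 72, 80, 83 and 87 and 59.0 and 61.2 CPM in libraries 76 and 91, against 29.1, 49.3 and 77.6 CPM at week 5. The fold change on the log2 scale was 1.34 (SE 0.24, BH P = 0.00281). STARD4, a carrier of cholesterol between membranes, was the member with all 6 libraries (8.81 to 17.2 CPM) above week 5 (3.21 to 8.77 CPM).

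Junction and adhesion genes of epithelium were mostly higher, with 13 of 21 called higher, 2 lower and a median log2 fold change of 1.05. ITGA2, a collagen-binding integrin subunit, had 23.2 to 113 CPM in the 6 libraries against 6.73 to 20.3 CPM, with no overlap. CLDN10, a claudin, was not called (BH P = 0.553), and its libraries spread widely: library 87 had 405 CPM while libraries 72, 80 and 83 had 5.66 to 22.3 CPM and week 5 had 25.3 to 128.9 CPM. The 2 genes called lower were CDH5 and GJA4, a cadherin and a connexin of endothelium.

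Cell type markers also differed between the weeks. CLDN3, CLDN4 and CLDN7 of the epithelial list and CDH5 of the endothelial list stand in the junction list too, and are counted in both. Of 6 epithelial markers, KRT8, CLDN3, CLDN4 and CLDN7 were called higher, and EPCAM (log2 fold change 0.60, BH P = 0.0609) and MUC1 were not. Their summed level was 929, 849 and 1305 CPM in libraries 72, 80 and 83 and 494, 733 and 612 CPM in libraries 76, 87 and 91, against 351 to 630 CPM at week 5. Of 4 endothelial markers 3 were called lower, with summed levels of 157 to 396 CPM against 271 to 680 CPM. PDGFRA, the stromal marker with a symbol, had a log2 fold change of -0.07 (BH P = 0.794). CR2 of B cells had 3.06 to 18.7 CPM against 8.97 to 42.9 CPM (log2 fold change -1.29, BH P = 0.0266), and MMP9 of neutrophils had 0.0747 to 26.3 CPM against 1.16 to 83.4 CPM (BH P = 0.747). No marker with a symbol was at 0 in all libraries. In whole biopsies, fewer cells of a type and less RNA per cell cannot be told apart. The part of cell composition in the results for apical, junction, matrix and vessel genes was not tested.

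Several patterning and growth factor genes were lower. HOXD10 (ENSBTAG00000016030), a homeobox factor, had 39.4, 47.5, 55.7, 33.1, 51.0 and 56.4 CPM in libraries 72, 76, 80, 83, 87 and 91. The week 5 values were 67.4, 94.8 and 110.7 CPM (lowest, median, highest), above all 6. The change amounted to a log2 fold change of -0.96 (SE 0.13, BH P = 0.000714). HOXD11 had 14.6 to 31.5 CPM against 29.2 to 55.0 CPM, with library 87 inside the week 5 range, and a log2 fold change of -0.92. In the HOX family, put together after the values were seen, 3 of 5 genes were called lower and none higher.

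FGFR1, a fibroblast growth factor receptor, had 11.7, 28.6, 12.4, 19.6, 24.9 and 22.9 CPM against 29.4, 40.9 and 81.8 CPM at week 5, so that library 76 lay just below the week 5 range. In the test, the log2 fold change was -1.28 (SE 0.26, BH P = 0.00517). FGFR2 and FGF7 were also called lower, by log2 fold changes of -1.10 and -1.52, and no gene of this family, also put together afterwards, was called higher among 4 tested.

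Of 10 Wnt and hedgehog genes tested, 3 were called higher and 3 lower. SFRP2 (ENSBTAG00000018563), a secreted Wnt antagonist of stroma, had 60.6, 57.9, 54.1, 61.4, 142 and 114 CPM in libraries 72, 76, 80, 83, 87 and 91 against 165, 326 and 1006 CPM at week 5. All 6 lay below week 5, and library 76 stood with 72, 80 and 83 here. The log2 fold change was -2.46 (SE 0.44, BH P = 0.00278). WNT4 and the receptor FZD2 were lower by log2 fold changes of -1.35 and -0.76. WNT11 had 62.7, 30.1 and 14.95 CPM in libraries 72, 80 and 83 and 1.22 to 4.06 CPM in the other 3, against 1.05 to 3.86 CPM (log2 fold change 3.23, BH P = 0.0027), a call lost in limma-voom (BH P = 0.0617). WNT16 was called higher by 1.28, with 15.6 to 62.6 CPM against 5.91 to 27.6 CPM. The Wnt antagonist DKK1 was called higher by 1.73 (BH P = 0.0235), with 17.95 CPM in library 72, 21.4 in library 80 and 61.95 in library 83 against 4.05 to 7.54 CPM at week 5. Libraries 76 and 87, with 2.68 and 1.26 CPM, lay below all week 5 libraries for DKK1.

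TCF7L1, a transcription factor of the Wnt pathway that represses targets, had 8.70 to 17.3 CPM in the 6 libraries against 17.3 to 24.5 CPM, and library 76 lay just below the lowest week 5 library. Its log2 fold change was -0.77 (SE 0.14, BH P = 0.00249). MEOX2 and HEY2, transcription factors of mesenchyme and vessels picked after their values were seen, had 3.43 to 6.56 and 3.94 to 8.77 CPM, all below week 5 (log2 fold changes -1.45 and -1.36).

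Of 7 collagen and matrix genes tested, 3 were called lower and none higher, with a median log2 fold change of -0.36. FBLN1, fibulin 1 of the extracellular matrix, had 611, 729, 612, 762, 673 and 817 CPM against 820, 1114 and 1344 CPM at week 5. Library 91, the highest of week 9, lay just below the lowest of week 5. The fold change on the log2 scale was -0.63 (SE 0.11, BH P = 0.00258). COL14A1, a fibril-associated collagen, fell by 1.43 on the log2 scale. ELN, elastin, had a log2 fold change of -0.86 (BH P = 0.0201), and was -0.78 without library 72 (BH P = 0.0524) and -0.81 without library 80 (BH P = 0.0527).

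Of 4 matrix proteases and inhibitors, TIMP2 and PLAT were called higher, by log2 fold changes of 1.07 and 0.62. Library 83 was highest for both, with 1174 and 1030 CPM. Without it the values were 0.60 (BH P = 0.103) and 0.43 (BH P = 0.101).

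EDNRA (ENSBTAG00000013674), the endothelin A receptor of vascular and uterine smooth muscle, had 23.6, 33.3, 27.1, 17.9, 32.5 and 49.3 CPM against 47.3, 69.6 and 91.2 CPM at week 5. Library 91 alone overlapped the week 5 range. The change amounted to a log2 fold change of -1.21 (SE 0.18, BH P = 0.00128). FXYD6, a regulator of the sodium pump, had 29.9, 33.4 and 29.6 CPM in libraries 72, 80 and 83 and 62.1, 54.7 and 64.2 CPM in libraries 76, 87 and 91, all below the 66.7 to 130.8 CPM of week 5 (log2 fold change -0.89, BH P = 0.00607).

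Ribosomal protein genes were lower by small folds. Of 46 cytosolic ribosomal protein genes tested, 25 were called lower and none higher, with a median log2 fold change of -0.33. Their summed level was 26440 to 33350 CPM in the 6 week 9 libraries and 29380 to 50860 CPM at week 5. RPL14 had 801, 964, 797, 827, 933 and 897 CPM against 1003, 1186 and 1607 CPM at week 5, with no overlap (log2 fold change -0.44, SE 0.09, BH P = 0.00565). RPL32, RPL34 and the mitochondrial MRPL11 also had all 6 libraries below week 5, and RPS3 fell by 0.38 on the log2 scale. Ribosomal protein genes have near-identical pseudogenes, so the assignment of their reads is uncertain.

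Among translation factors, calls were made in 1 direction. Of 11 initiation factor genes 4 were called lower (EIF3D, EIF3F, EIF3G and EIF3H, all subunits of the same initiation complex) and none higher, with a median log2 fold change of -0.23. Of 6 elongation factor genes, a family put together afterwards, 3 were called lower. EEF2, which moves the ribosome along the mRNA, had 1761 to 2084 CPM against 2049 to 4164 CPM (log2 fold change -0.48, BH P = 0.023). Mitochondrial ribosomal protein genes did not move together, with 3 called higher and 3 lower of 7. MRPS36, a protein now placed in the oxoglutarate dehydrogenase complex, had 1007, 790 and 118 CPM in libraries 72, 80 and 83 and 35.2 to 46.6 CPM in the other 3, within the 23.5 to 54.9 CPM of week 5.

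**Figure D3:**
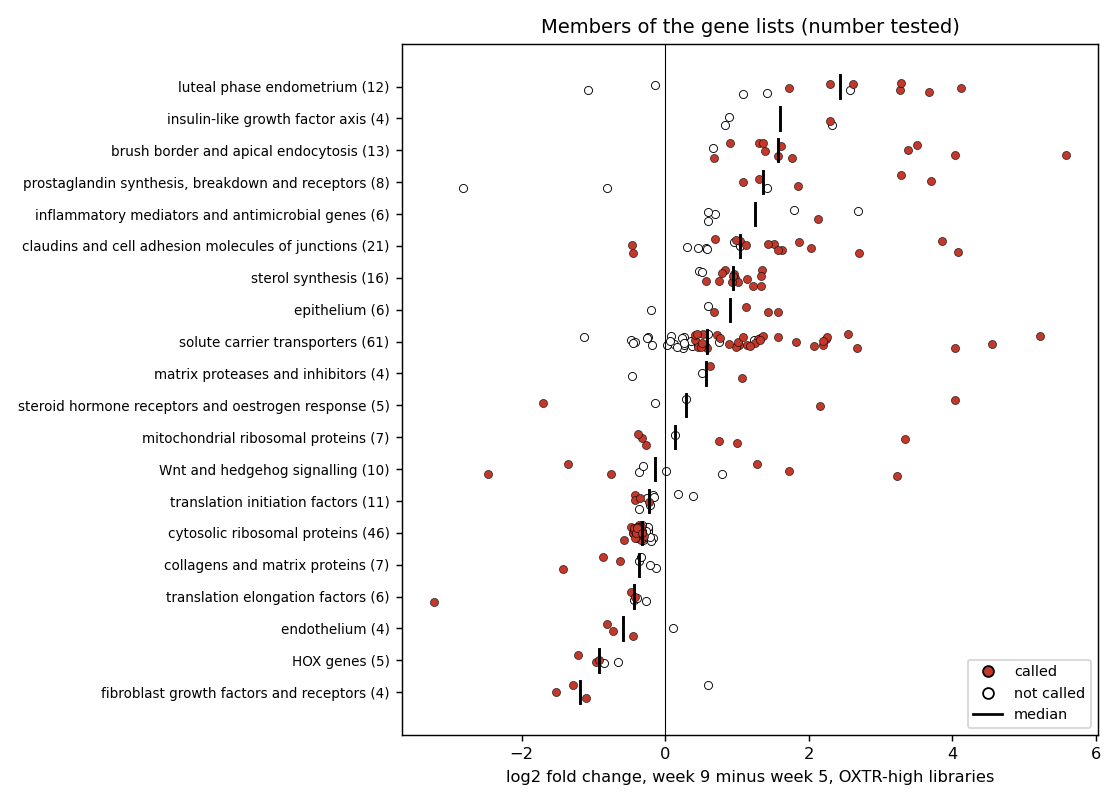
Log2 fold change (week 9 over week 5, OXTR-high libraries) of each tested member of the gene lists, with called genes filled and the median of each list as a bar. Ribosomal protein genes center at -0.33, sterol synthesis genes at 0.95 and brush border genes at 1.57, against 0.02 for all genes tested.

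Few genes of the remaining lists had a symbol. IGFBP2, a binding protein of insulin-like growth factors, was the 1 of 4 genes of that axis called, with 325 CPM in library 83, 6.06 CPM in library 91 and 30.5 to 143 CPM in the others, against 3.77 to 48.1 CPM (log2 fold change 2.30, BH P = 0.0147). Without library 83 the value was 1.5 (BH P = 0.0857). Of 6 inflammatory genes tested, PTX3, a soluble pattern receptor, was called (log2 fold change 2.13, BH P = 0.0433), and lost the call in most fits that left out 1 library (1.83 without library 80, BH P = 0.115). The single cell cycle gene with a symbol, MCM7 of the replicative helicase, had a log2 fold change of -0.39 (BH P = 0.0175), and was -0.34 without library 80 (BH P = 0.0506). The 2 mitochondrial-encoded genes and 3 respiratory chain genes were not called. Interferon-stimulated genes, endoplasmic reticulum chaperones and markers of ciliated cells, smooth muscle, T cells, macrophages and red blood cells had no symbol to identify them and were not analysed here.

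**Figure D4:**
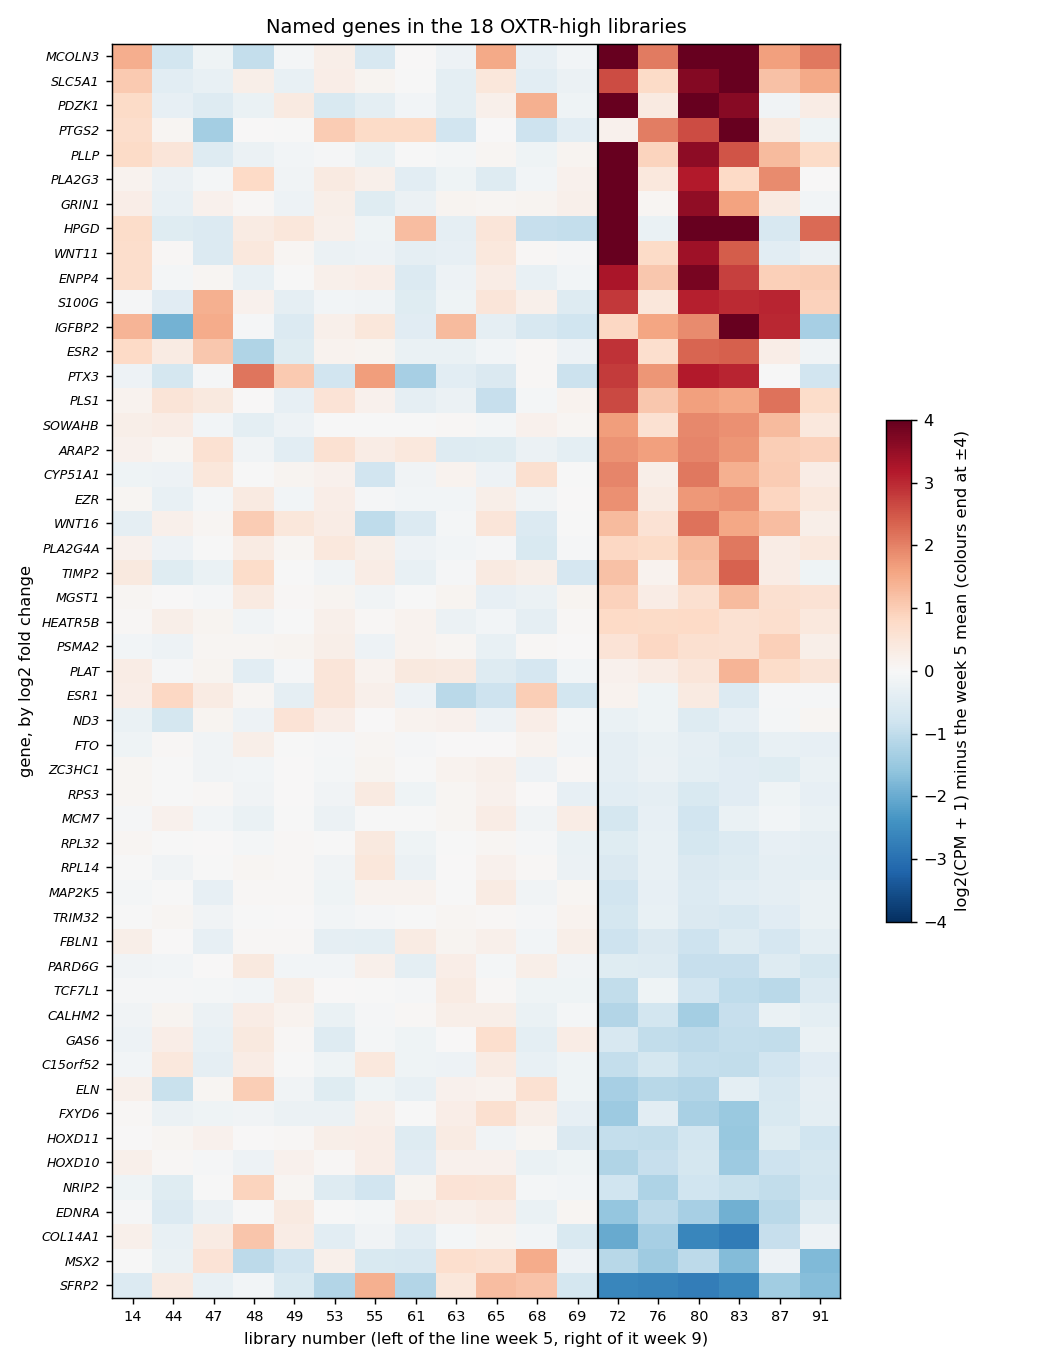
Log2 of CPM plus 1, less the mean of the week 5 OXTR-high libraries, for the named genes (rows) in the OXTR-high libraries of week 5 and week 9 (columns). Libraries 72, 80 and 83 stand out for ENPP4, MCOLN3, HPGD and PDZK1, while HOXD10, SFRP2 and RPL14 are lower in all 6 libraries of week 9.

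The change was set against that of OXTR-low libraries over the same weeks, 15 at week 9 and 9 CycW5 libraries at week 5. OXTR itself was not level between these libraries, with a raw median of 43.1 CPM at week 5 and 5.7 CPM at week 9. The week change in OXTR-low libraries is therefore not one at constant OXTR. There, 1905 of 15733 genes were called (12.1%), a count that ran from 1033 without library 52 to 2928 without library 89, and was 5794 in limma-voom with library quality weights. The difference of the week changes was itself called for 2913 genes (18.5%). Because the libraries were divided by OXTR, genes that follow OXTR enter this difference by construction, and the week 5 libraries of the 2 comparisons come from cows of different status.

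ENPP4 was already high in OXTR-low endometrium at week 5. It had 219 to 657 CPM at week 5 and 172 to 480 CPM at week 9, and its log2 change over the weeks was -0.15 (BH P = 0.71). The difference of the changes was 2.75 (BH P = 2.4e-06). HOXD10 had 26.2 to 65.3 CPM at week 5 and 8.84 to 57.0 CPM at week 9 in OXTR-low libraries, close to the 33.1 to 56.4 CPM of the 6 OXTR-high libraries of week 9, with a difference of the changes of -0.90 (BH P = 0.018). SFRP2 had 51.7 to 213 CPM and 38.97 to 89.8 CPM in the OXTR-low libraries (difference of the changes -1.75). RPL14 had 752 to 1031 CPM and 744 to 1042 CPM (difference -0.41), and the 1003 to 1607 CPM of the OXTR-high libraries of week 5 met these ranges only at its lower end.

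GRIN1 and PLA2G3 changed in opposite directions in the 2 comparisons. GRIN1, a glutamate receptor subunit, had 64.6, 32.4 and 7.67 CPM in libraries 72, 80 and 83 and 1.66 to 2.68 CPM in the other 3, against 1.05 to 2.42 CPM at week 5 (log2 fold change 3.31). In OXTR-low libraries it fell, with 10.6 to 80.8 CPM at week 5 and 4.91 to 16.6 CPM at week 9 (log2 fold change -2.19), and the difference was 5.48. Libraries 72 and 80 thus held levels seen among OXTR-low libraries of week 5 and above those of week 9. PLA2G3, a secreted phospholipase, had 25.6 and 13.1 CPM in libraries 72 and 80 and 4.80 CPM in library 87. Libraries 76, 83 and 91 had 0.602 to 1.75 CPM, within the low 0.106 to 1.76 CPM of week 5. In OXTR-low libraries PLA2G3 had 0.512 to 19.8 CPM at week 5 and 0.416 to 2.47 CPM at week 9. Its log2 fold changes were 3.66 in OXTR-high and -2.96 in OXTR-low libraries, with a difference of 6.60. MRPS36 and ITGA2, higher at week 9 in the OXTR-high libraries, were lower in OXTR-low libraries (log2 fold changes -1.66 and -0.83). Among genes with a negative difference, GAS6, a ligand of TAM receptor kinases, had 77.0 to 132.1 CPM in the 6 libraries against 113 to 254.6 CPM (log2 fold change -0.81), with a value of 0.32 in OXTR-low libraries that was not called and a difference of -1.14. MAP2K5, a kinase of the ERK5 pathway, and NRIP2 were lower by -0.45 and -1.20 in OXTR-high libraries, with values of 0.17 and 0.54 in OXTR-low libraries that were not called and differences of -0.63 and -1.75. In limma-voom the week call of GRIN1 in OXTR-high libraries was lost (BH P = 0.0555).

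TIMP2 and PLAT were called higher in both comparisons, but in OXTR-high libraries neither call held without library 83. Their log2 changes in OXTR-low libraries were 1.11 and 0.74, and the differences were -0.06 and -0.13, not called (BH P = 0.94 and 0.78). A difference that is not called does not show that the changes are equal. For the sterol gene CYP51A1 the difference of 0.59 was not called either (BH P = 0.26).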

How the data were processed

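RNA from transcervical endometrial biopsies went into stranded mRNA libraries, read from a single end. Reads were trimmed by the authors (cutadapt, fqtrim), who aligned them with HISAT2 to bovine build UMD3.1 and counted reads per Ensembl gene with featureCounts, as the study's methods state. The submitters' processing notes name HISAT2, StringTie and edgeR, so which counter made the deposited table is not settled. Whether the counting used strand is not given in the sources used here, so overlapping genes may share reads. The deposited values are whole-number counts for 18830 genes in 50 libraries, with total counts of 24235270 to 32453713 in the 18 libraries compared. Every column matched a library's labels.

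Counts were tested with edgeR 4.0.16 (R 4.3.3): TMM scaling, filterByExpr, robust quasi-likelihood fits and Benjamini-Hochberg adjustment over all genes tested. OXTR was in the fits and the adjustment, and was left out of the counts of genes tested and called. The OXTR-high comparison used its 18 libraries. The OXTR-low comparison and the difference used a fit of 4 groups (24 more libraries). The labels hold no cow or microbiota values, so no covariate entered. Alternatives used limma 3.58.1 and DESeq2 1.42.0, other filters, other OXTR limits, OXTR as a covariate and each library left out. Tested on simulated data, with 200 genes changed, the OXTR-high fit (15211 genes) recovered 66% of genes changed 2-fold. No pair among the 18 libraries agreed within sampling noise.

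The reference table held no Ensembl identifiers (0 matched), so symbols came from the study's supplementary tables (2321 of 2729 genes listed there). Their fold changes and P-values were not used. No coordinates or sequences are given. Named genes were the 12 higher and 12 lower genes with the smallest adjusted P, up to 3 called members of each gene list (the smallest P where none was called), OXTR, ESR1, SFRP2, FXYD6, EDNRA, ENPP4, PLLP, MCOLN3 and HPGD, and the 3 genes per direction leading the difference. PGR was not identified, and 2 genes that this rule names are not reported here. Other list members are named as examples. The libraries, lists and tests were chosen with earlier results of these data known, and 4 gene families were added after the values were seen. Each library counts as a replicate, although the labels do not say that libraries of both weeks come from separate cows.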

Additional observations from a re-analysis of the deposited data

Results flagged for a closer look

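Values of single libraries were searched for in 104 sets of 6 or 9 libraries (52 named genes in the OXTR-high libraries of week 9 and in the OXTR-low libraries of week 5), and 11 sets held a library whose gap to its nearest neighbour passed Dixon's 95% limit. For independent sets of normally distributed values, chance alone gives about 1 in 20. The sets here share libraries and hold CPM without a log scale, so 11 of 104 is no test of an excess. Among the OXTR-high libraries of week 9, library 83 stood apart for PTGS2 (1670 CPM), TIMP2 (1170 CPM) and FTO (60.6 CPM, the lowest), and library 87 for MSX2 (4.15 CPM). Among the OXTR-low libraries of week 5, library 12 stood apart for ENPP4 (657 CPM) and PTX3 (117 CPM), library 70 for SLC5A1 (72.2 CPM) and PLA2G4A (220 CPM), library 59 for C15orf52 (29.3 CPM) and COL14A1 (108 CPM), and library 52 for SFRP2 (213 CPM).

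For 35 of the 52 named genes the week change differed between OXTR-high and OXTR-low libraries, tested as a contrast in edgeR over all genes. OXTR, which is among the 52, is not reported for this contrast. Over all genes tested, 18.5% were called. Named genes were picked in part by this contrast and by the OXTR-high comparison of the same libraries, so a high count follows from the choice. Differences are log2 values, OXTR-high minus OXTR-low. Division of the libraries by OXTR brings genes that follow OXTR into this contrast by construction. The larger positive differences were PLA2G3 6.60, GRIN1 5.48, PDZK1 5.10, PLLP 5.04, WNT11 3.61, PTGS2 3.20, MCOLN3 3.01, ENPP4 2.75, HPGD 2.53, SLC5A1 2.46, PLS1 2.39, S100G 2.30, ESR2 2.30, ARAP2 1.86 and EZR 1.04. Smaller positive differences were 0.672 for PSMA2, 0.665 for HEATR5B and 0.611 for MGST1.

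Negative differences were -1.75 for SFRP2 and for NRIP2, -1.14 for GAS6, -1.04 for ELN, -0.943 for EDNRA, -0.911 for CALHM2, -0.900 for HOXD10, -0.854 for FXYD6, -0.807 for TCF7L1, -0.684 for C15orf52 and -0.633 for MAP2K5. The differences of MCM7 (-0.480), RPL32 (-0.451), RPL14 (-0.412), ZC3HC1 (-0.404), TRIM32 (-0.393) and RPS3 (-0.307) were smaller.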

How the results depend on the processing

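The 2584 calls between OXTR-high libraries became 1384 in limma-voom with library quality weights, 0 with an OXTR limit of 100 CPM, 163 with NoCycW5 and 1652 with CycW5 libraries of week 9 only, and, in alternatives chosen after seeing the data, 183 without libraries 72, 80 and 83 and 3493 without libraries 76, 87 and 91. Leaving out 1 library at a time gave 1368 to 3092 calls. It moved by over 1.5 times only without library 72, 80 or 83 (1511, 1368 and 1414). Of 49 named genes called, 41 kept their call without any 1 library, and 48 never changed direction; PTGS2 had -0.27 with the limit of 100 CPM. Without libraries 72, 80 and 83, 10 of the 49 were still called: ENPP4, HEATR5B, PLS1, SOWAHB, ARAP2, PSMA2, S100G, MGST1, HOXD10 and EDNRA. Libraries 72, 80 and 83 were set apart by their position over the same genes, so fewer calls without them follow from the choice. Other filters and scalings, limma-voom, the DESeq2 test, all 50 libraries in a fit, the 4-group fit (added) and OXTR as a covariate gave 2100 to 3758 calls.

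The 1905 calls between OXTR-low libraries became 5794 with quality weights and 903 with a limit of 40 CPM, and 1033 to 2928 without 1 library (2928 without library 89, 2861 without library 70, and 1033 to 1205 without library 12, 52, 54, 59 or 67). The 2913 calls of the difference became 1735 with a limit of 40 CPM, 1015 with 100 CPM, and 1876 (without library 72) to 3720 without 1 library. No paired analysis was possible because the replicate numbers follow accession order and the labels link no library to a cow.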

Other observations

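Other OXTR-high libraries of week 5 stood outside the comparison, namely library 57 of the CycW5 cows (162.3 CPM of the total) and 4 libraries of CycNoP4 cows, which were cycling without P4 (124.7 to 256.1 CPM). On the line between the mean of the OXTR-high libraries of week 5 and that of the OXTR-low libraries of week 9, library 57 stood at 0.133 and the CycNoP4 libraries at 0.0663 to 0.372. Library 57 lay within the range of the 12 NoCycW5 libraries for ENPP4 (51.1 CPM) and HEATR5B (61.1 CPM), above it for HOXD10 (112.5 CPM), and had less SFRP2 (128.7 CPM) than any of them. The CycNoP4 libraries spread widely for HPGD (6.45 to 115 CPM), MCOLN3 (11.9 to 158 CPM) and PLS1 (77.8 to 144 CPM), and stayed at 41.8 to 59.3 CPM for HEATR5B.

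The 3 CycNoP4 libraries of week 9 were OXTR-low (1.58 to 10.53 CPM) and stood at positions 0.84 to 1.15. Library 89, OXTR-low at week 9, stood at 0.265, the lowest of its set.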
